A study of Homo sapiens with 4 samples.

Results

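A set of 10 genes known for the change of epithelial cells into mesenchymal ones was followed in a lung squamous carcinoma line: the cadherins CDH1 and CDH2, the surface adhesion molecule EPCAM, the filament protein gene VIM, the matrix protein gene FN1, and the transcription factor genes SNAI1, SNAI2, ZEB1, ZEB2 and TWIST1. They were taken by symbol from the deposited table, as 10 of its 28277 genes. All 10 passed the filter on low counts, which kept 14482 genes. Of all tested genes, 3 (0.0207%) passed the test between Hx1R8-treated and Vehicle cells, and none of the 10 did. Their levels, on the other hand, spread over a wide range: N-cadherin (CDH2) mRNA stood about 10-fold above E-cadherin (CDH1) mRNA in every library, while EPCAM, VIM and FN1 were all abundant.

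RNA from NCI-H520, an established human lung squamous cell carcinoma line of wild-type genotype per the labels, was sequenced in 2 libraries from cells given 10 µM Hx1R8 over 12 h and 2 libraries from cells given ultrapure water (Vehicle). Both groups grew in RPMI-1640 with 15% fetal bovine serum, and RNA was extracted with TRIzol. The series title concerns the self-association and condensates of the transcription factor SOX2 in drug-resistant squamous lung cancer. The question put to the members is whether their mRNA levels differ between Hx1R8 and Vehicle cells. Everything was measured in 1 cell line, with Hx1R8 at 1 dose and 1 time, and the labels give no time for Vehicle cells. Since no label states that the replicates came from separate cultures, each p-value covers only the spread between these libraries, which may be technical.

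In an epithelium, E-cadherin joins neighbouring cells at adherens junctions and is tied to the actin cytoskeleton by catenins. During a mesenchymal transition, as in embryonic development, wound repair and some carcinomas, E-cadherin falls, N-cadherin replaces it, and vimentin filaments and fibronectin accumulate. The Snail (SNAI1, SNAI2) and ZEB (ZEB1, ZEB2) zinc finger proteins and the basic helix-loop-helix protein TWIST1 drive the change, the Snail and ZEB proteins by binding E-boxes in the CDH1 promoter, and the microRNA-200 family holds ZEB1 and ZEB2 mRNA down.

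The 5 mature microRNAs of that family are shown because they target ZEB1 and ZEB2 mRNA and because the reads of their hairpin genes differed between the 2 genomic clusters. The sequences are from RefSeq on GRCh38.p14, 5′ to 3′, with the seed, bases 2 to 8, in capitals.
hsa-miR-200a-3p: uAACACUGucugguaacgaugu
hsa-miR-200b-3p: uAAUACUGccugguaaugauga
hsa-miR-429: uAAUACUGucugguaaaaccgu
hsa-miR-200c-3p: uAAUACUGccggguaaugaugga
hsa-miR-141-3p: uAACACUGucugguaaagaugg
Of these, 3 (miR-200b-3p, miR-429 and miR-200c-3p) share the seed AAUACUG, and the other two share AACACUG, which differs from it by a single base. MIR200A, MIR200B and MIR429 lie together on chromosome 1, and MIR200C and MIR141 on chromosome 12. The table counts reads of the hairpin genes, not mature microRNAs, which were not measured. MIR429 had 21 and 24 reads in Hx1R8 libraries and 24 and 23 in Vehicle libraries. MIR200C had 0 reads in all 4 libraries, and MIR141 had 0 and 0 reads in Hx1R8 libraries and 0 and 1 in Vehicle libraries. All but 1 of the hairpin reads thus fell on the chromosome 1 cluster, where MIR200A had 7 and 7 reads in Hx1R8 libraries and 11 and 6 in Vehicle libraries. MIR200B had 3 and 12 reads in Hx1R8 libraries and 6 and 6 in Vehicle libraries. MIR200CHG, the host gene of the chromosome 12 cluster, was near 0 as well, with 2 and 4 reads in Hx1R8 libraries and 2 and 1 in Vehicle libraries. These hairpin genes were picked after their values were seen.

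Promoter windows of 250 bases before a RefSeq start were read for 5 members (CDH2, VIM, FN1, ZEB1 and ZEB2). They came to 12 windows in all, most of them of ZEB1, which has many listed starts. CDH1, EPCAM, SNAI1, SNAI2 and TWIST1 had no window. The E-box bound by Snail and ZEB proteins was searched as CAGGTG and CACCTG, which are the same motif on opposite strands, so both strands are covered. It was found in 17.5% of the 35116 windows of all genes and in 2 of the members' 12 windows. Both belong to ZEB1 and are shown with the window of MIR200CHG, since ZEB1 and the microRNAs of this host are known to repress each other. All 3 are on the plus strand of GRCh38.p14, written 5′ to 3′ with the E-box in capitals. The first is the ZEB1 window chr10:31318167-31318416, the second the ZEB1 window chr10:31318966-31319215 and the last the MIR200CHG window chr12:6962995-6963244.
ZEB1 first start: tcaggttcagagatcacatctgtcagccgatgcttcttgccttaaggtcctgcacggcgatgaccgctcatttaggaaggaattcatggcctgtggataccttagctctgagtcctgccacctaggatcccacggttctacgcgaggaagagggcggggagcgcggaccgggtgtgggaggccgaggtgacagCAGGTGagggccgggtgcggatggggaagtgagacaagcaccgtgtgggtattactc
ZEB1 later start: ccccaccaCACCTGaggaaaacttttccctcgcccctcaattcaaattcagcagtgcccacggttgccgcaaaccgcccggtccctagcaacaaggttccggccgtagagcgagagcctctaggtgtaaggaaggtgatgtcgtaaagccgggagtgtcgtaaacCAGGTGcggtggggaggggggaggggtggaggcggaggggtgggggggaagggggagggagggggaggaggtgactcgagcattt
MIR200CHG start: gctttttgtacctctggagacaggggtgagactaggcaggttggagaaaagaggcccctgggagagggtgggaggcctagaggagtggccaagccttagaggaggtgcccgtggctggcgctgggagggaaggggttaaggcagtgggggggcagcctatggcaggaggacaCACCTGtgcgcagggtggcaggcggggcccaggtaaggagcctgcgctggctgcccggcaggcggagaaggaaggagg
Counted from the start, with upstream bases negative, the E-box begins at -57 in the first ZEB1 window, at -242 and -85 in the later ZEB1 window, and at -78 in the MIR200CHG window. The related E-box CACGTG, a palindrome, was in 6.34% of all windows and in 0 of the members' 12. A match is a string of letters and does not show that a factor binds there.

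Library totals lay between 17259403 and 20920857 reads, and a floor of 3 reads corresponds to 0.143 to 0.174 CPM. CPM is the usual library-scaled count, taken here over the reads in tested genes and scaled by edgeR's TMM factors of 0.998 to 1.002. Levels of different genes are compared in TPM, the length-scaled level, computed here from the counts and the exon length listed for each gene. Whether a lower bulk value means fewer cells with the transcript or less of it per cell cannot be told apart. Across all tested genes, edgeR's quasi-likelihood test with Benjamini-Hochberg adjustment called 3 genes at an adjusted p under 0.05 (0.0207% of those tested), TXNDC5 and RNA28SN5 higher and IFI27 lower in Hx1R8 cells. Against this background, 0 of the 10 members were called, 1 member had an unadjusted p under 0.05 (3.39% of all tested genes did), and limma-voom and DESeq2 also called 0 members.

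The cell type named in the labels was checked against marker genes. Of 10 squamous carcinoma markers, 6 were under 1 TPM in all 4 libraries, while SOX2 stood at 640 and 617 TPM in Hx1R8 libraries and at 664 and 629 TPM in Vehicle libraries. KRT14, a basal keratin, and DSG3, a desmosomal cadherin, had 0 reads, and TP63, the squamous lineage factor, stayed at or under 0.315 TPM. In contrast, the neuroendocrine markers summed to 1608 and 1633 TPM in Hx1R8 libraries and to 1624 and 1624 TPM in Vehicle libraries, led by UCHL1, CHGB and POU3F2. The alveolar markers summed to 76.5 and 81.7 TPM in Hx1R8 libraries and to 80.6 and 80.1 TPM in Vehicle libraries. Most of this sum was ABCA3, at 59.1 to 62.1 TPM over the libraries. Of the 8 alveolar markers, 3 were under 1 TPM in all libraries, 2 of them with 0 reads. Of the squamous markers, SOX2, PITX1 and KRT6A were thus above 10 TPM in every library, KRT6A at 23.8 and 23.0 TPM in Hx1R8 libraries and at 26.6 and 26.2 TPM in Vehicle libraries. The general epithelial markers summed to 2532 and 2590 TPM in Hx1R8 libraries and to 2515 and 2615 TPM in Vehicle libraries, most of it KRT8, KRT18 and KRT19. GRHL2, a factor that keeps epithelial genes on, had 1 read in all, and RAB25, an epithelial trafficking gene, had 7. GRHL2, RAB25, KRT14, DSG3 and TP63 were named after their values were seen.

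Because fibroblasts, endothelium and leukocytes also make VIM or FN1 mRNA, their markers were read too. Of 10 fibroblast markers, 8 were under 1 TPM in all libraries, COL3A1 had 0 reads, and the list summed to 6.39 and 6.66 TPM in Hx1R8 libraries and to 6.31 and 6.42 TPM in Vehicle libraries. Of 8 endothelial markers, 6 were under 1 TPM and PECAM1, EMCN and ERG had 0 reads, with sums of 1.84 and 2.81 TPM in Hx1R8 libraries and 2.79 and 3.04 TPM in Vehicle libraries. Of 8 leukocyte markers, 5 were under 1 TPM and PTPRC, CD3E and MS4A1 had 0 reads, with sums of 4.16 and 5.77 TPM in Hx1R8 libraries and 6.63 and 5.93 TPM in Vehicle libraries. The markers with the highest levels were COL1A1 of the fibroblast list, with 3.80 and 4.29 TPM in Hx1R8 libraries and 4.28 and 4.22 TPM in Vehicle libraries, CLDN5 of the endothelial list, with 0.927 and 1.80 TPM in Hx1R8 libraries and 1.52 and 1.69 TPM in Vehicle libraries, and CD14 of the leukocyte list. CD14 had 1.41 and 2.43 TPM in Hx1R8 libraries and 2.57 and 2.48 TPM in Vehicle libraries.

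The members differed far more from one another than between the groups. By mean TPM over the 4 libraries, EPCAM came first at 999 TPM (rank 106 of all genes), then VIM at 738 TPM (rank 163) and FN1 at 480 TPM (rank 279). CDH2 followed at 84.9 TPM. A gap of 9.69-fold separated CDH2 from the next member, TWIST1 at 8.76 TPM, with CDH1 close behind at 8.45 TPM. ZEB1 stood at 4.16 TPM, SNAI1 at 1.99 TPM, SNAI2 at 1.39 TPM and ZEB2 at 0.422 TPM, so that all 5 transcription factors were under 10 TPM. TWIST1 and CDH1, and SNAI1 and SNAI2, were the neighbours whose ranges over the 4 libraries overlapped, and so did not differ beyond their spread. Without the division by length, which mixes level with exon length, the order by CPM put FN1 first and EPCAM in place 3.

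**Figure D1:**
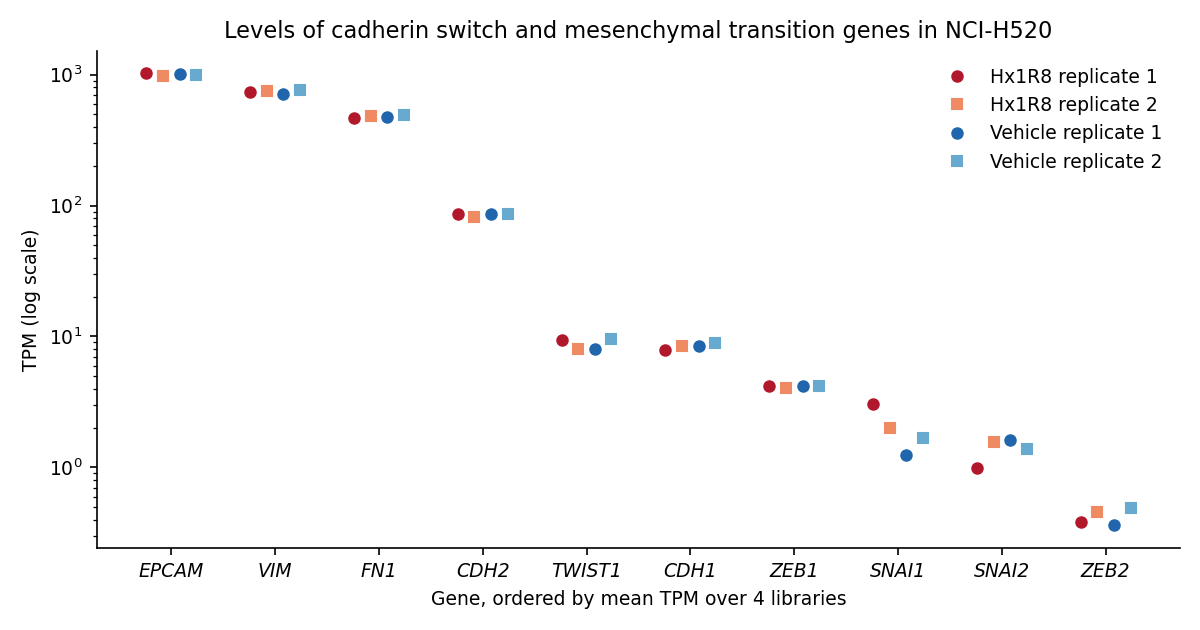
Level of each member in TPM (log axis), 1 point per library, Hx1R8 and Vehicle, ordered by mean level. EPCAM, VIM and FN1 average 999, 738 and 480 TPM, CDH2 averages 84.9 TPM, and the transcription factors with CDH1 lie under 10 TPM.

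The cadherins come first among the effectors. CDH2 (chr18:27950966-28177130, minus strand, hg38) encodes N-cadherin, the cadherin of neurons and mesenchyme. CDH2 had 2012 and 2310 reads (116.9 and 110.2 CPM) in Hx1R8 libraries and 2052 and 2018 reads (117.3 and 116.7 CPM) in Vehicle libraries. The low value was Hx1R8 replicate 2, and the groups overlapped. Mean CPM was 113.6 ± 4.69 in Hx1R8 cells and 117.0 ± 0.417 in Vehicle cells (SD, n = 2 each), a log2 fold change of -0.04 (SE 0.05, edgeR quasi-likelihood test, adjusted p = 0.9999). The fold interval (95%) ran from 0.903 to 1.04.

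CDH1 (chr16:68737292-68835536, plus strand) encodes E-cadherin, the adhesion molecule whose loss defines the switch. CDH1 had 216 and 278 reads (12.55 and 13.27 CPM) in Hx1R8 libraries and 233 and 247 reads (13.32 and 14.28 CPM) in Vehicle libraries. Both Hx1R8 values lay below both Vehicle values, by a narrow margin between 13.27 and 13.32 CPM. Mean CPM was 12.9 ± 0.509 in Hx1R8 cells and 13.8 ± 0.683 in Vehicle cells (SD, n = 2 each). The order of the values was met by 15.2% of all tested genes and by no other member. The log2 fold change was -0.09 (SE 0.10, edgeR adjusted p = 0.9999), and the fold interval ran from 0.812 to 1.08. A fall of CDH1 by 1.5-fold would lie outside it.

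The balance of both cadherins was read within each library, where depth cancels. The ratio of CDH2 to CDH1 in TPM was 10.8 and 9.68 in Hx1R8 libraries and 10.3 and 9.51 in Vehicle libraries. The groups overlapped, with the highest ratio in Hx1R8 replicate 1 and the lowest in Vehicle replicate 2. The mean log2 ratio of CDH1 to CDH2 was -3.36 ± 0.12 in Hx1R8 cells and -3.30 ± 0.08 in Vehicle cells (SD, n = 2 each), a difference of -0.05. Leaving out 1 library moved this difference between -0.14 (without Hx1R8 replicate 2) and 0.03 (without Hx1R8 replicate 1). Of the summed TPM of 20 cadherins, CDH2 made 71.3% and 69.1% in Hx1R8 libraries and 70.1% and 68.8% in Vehicle libraries. CDH24 followed at 16.4% to 17.5% over the libraries, CDH1 next at 6.57% to 7.23% and then CDH3, P-cadherin of basal epithelium, at 2.74% to 3.53%. Of the 20, 14 were under 1 TPM in all libraries, and CDH7, CDH19, CDH20 and CDH22, named after their values were seen, had 0 reads. N-cadherin mRNA thus made most of the mRNA of these 20 cadherins with and without Hx1R8. Other members of the cadherin family, such as desmosomal cadherins, are not in this sum.

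**Figure D2:**
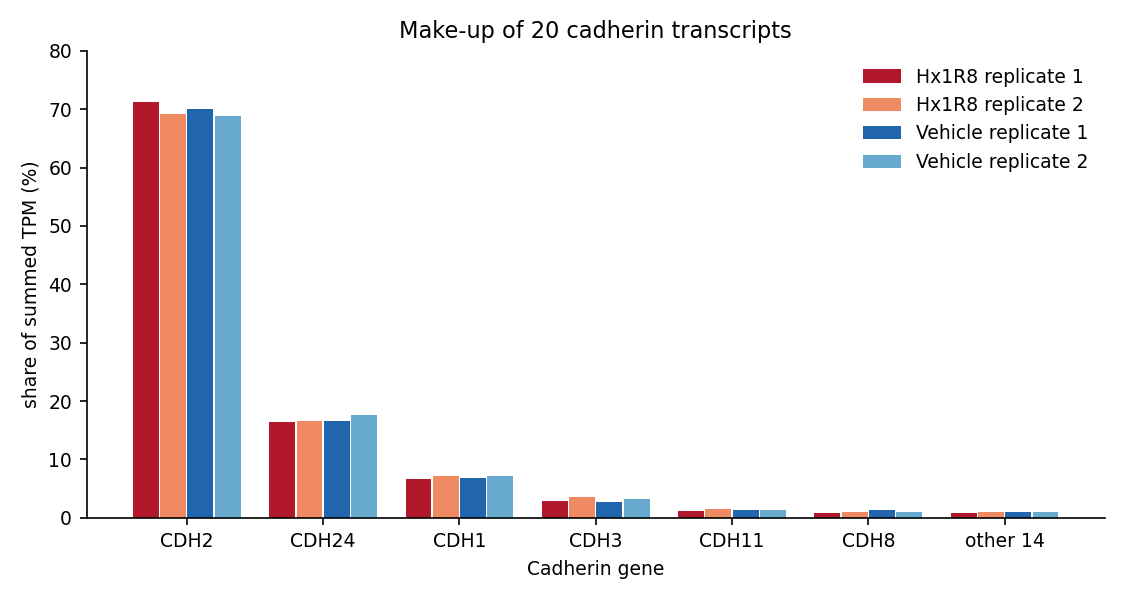
Share of the summed TPM of 20 cadherins held by single cadherins in each library, in percent, Hx1R8 libraries left of Vehicle libraries. CDH2 holds 68.8% to 71.3% in every library, and CDH1 holds 6.57% to 7.23%.

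EPCAM (chr2:47369311-47387020, plus strand) encodes the epithelial cell adhesion molecule, a surface marker of carcinomas. EPCAM had 8848 and 10094 reads (514.0 and 481.7 CPM) in Hx1R8 libraries and 8896 and 8644 reads (508.4 and 499.8 CPM) in Vehicle libraries. The highest and the lowest value were both from Hx1R8 cells. The log2 fold change was -0.02 (SE 0.05, edgeR adjusted p = 0.9999; fold interval 0.925 to 1.05).

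VIM (chr10:17228241-17237593, plus strand) encodes vimentin, the intermediate filament of mesenchymal cells. VIM had 8860 and 10872 reads (514.7 and 518.9 CPM) in Hx1R8 libraries and 8698 and 9183 reads (497.1 and 531.0 CPM) in Vehicle libraries. Here the extremes were both from Vehicle cells, and the log2 fold change was 0.01 (SE 0.05, edgeR adjusted p = 0.9999; fold interval 0.942 to 1.07). VIM shares exon bases with its antisense gene VIM-AS1, leaving 70.2% its own, and the sources used here do not give the strand setting of the counting. VIM-AS1 itself had 28 to 33 reads per library. The ratio of EPCAM to VIM in TPM was 1.39 and 1.29 in Hx1R8 libraries and 1.42 and 1.31 in Vehicle libraries. By TPM, the epithelial marker thus stood somewhat above the mesenchymal one in every library. If reads on the bases shared with VIM-AS1 were not counted, the TPM of VIM is too low, so this order is uncertain.

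FN1 (chr2:215360440-215436070, minus strand) encodes fibronectin, the matrix protein that cells grip through integrins. FN1 had 23645 and 29347 reads (1373 and 1401 CPM) in Hx1R8 libraries and 24086 and 25084 reads (1376 and 1450 CPM) in Vehicle libraries. The groups overlapped, and the log2 fold change was -0.03 (SE 0.05, edgeR adjusted p = 0.9999; fold interval 0.920 to 1.05).

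The Snail factors were read from few reads. SNAI1 (chr20:49982980-49988883, plus strand) encodes Snail, a direct repressor of CDH1. SNAI1 had 29 and 23 reads (1.68 and 1.10 CPM) in Hx1R8 libraries and 12 and 16 reads (0.686 and 0.925 CPM) in Vehicle libraries. Exact Poisson intervals (95%, covering counting error only, as do the floors) were 19.4 to 41.6 and 14.6 to 34.5 reads in Hx1R8 libraries and 6.20 to 21.0 and 9.15 to 26.0 reads in Vehicle libraries. Both Hx1R8 values were above both Vehicle values, an order met by 14.7% of all tested genes, and the counting intervals of all 4 libraries overlapped.

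Mean SNAI1 CPM was 1.39 ± 0.415 in Hx1R8 cells and 0.805 ± 0.169 in Vehicle cells (SD, n = 2 each). The fitted fold was 1.69 with an interval of 1.04 to 2.74, and SNAI1 did not pass the test over all genes (edgeR quasi-likelihood test, unadjusted p = 0.034, adjusted p = 0.9999). Leaving out 1 library at a time gave log2 fold changes between 0.45 (without Hx1R8 replicate 1) and 1.06 (without Hx1R8 replicate 2).

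SNAI2 (chromosome 8, minus strand) encodes Slug, the Snail relative of neural crest and basal epithelium. SNAI2 had 12 and 23 reads (0.697 and 1.10 CPM) in Hx1R8 libraries and 20 and 17 reads (1.14 and 0.983 CPM) in Vehicle libraries. The groups overlapped, and the log2 fold change of -0.21 (SE 0.35, edgeR adjusted p = 0.9999) had a fold interval from 0.528 to 1.41. The ratio of SNAI2 to SNAI1 in TPM was 0.323 and 0.781 in Hx1R8 libraries and 1.30 and 0.830 in Vehicle libraries. Both Hx1R8 ratios lay below both Vehicle ratios, by a mean log2 difference of -1.05, with SDs of 0.90 in Hx1R8 cells and 0.46 in Vehicle cells (n = 2 each). The difference was -0.41 without Hx1R8 replicate 1, -1.69 without Hx1R8 replicate 2, -0.72 without Vehicle replicate 1 and -1.37 without Vehicle replicate 2. The ratio is given as a description, with no p.

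**Figure D3:**
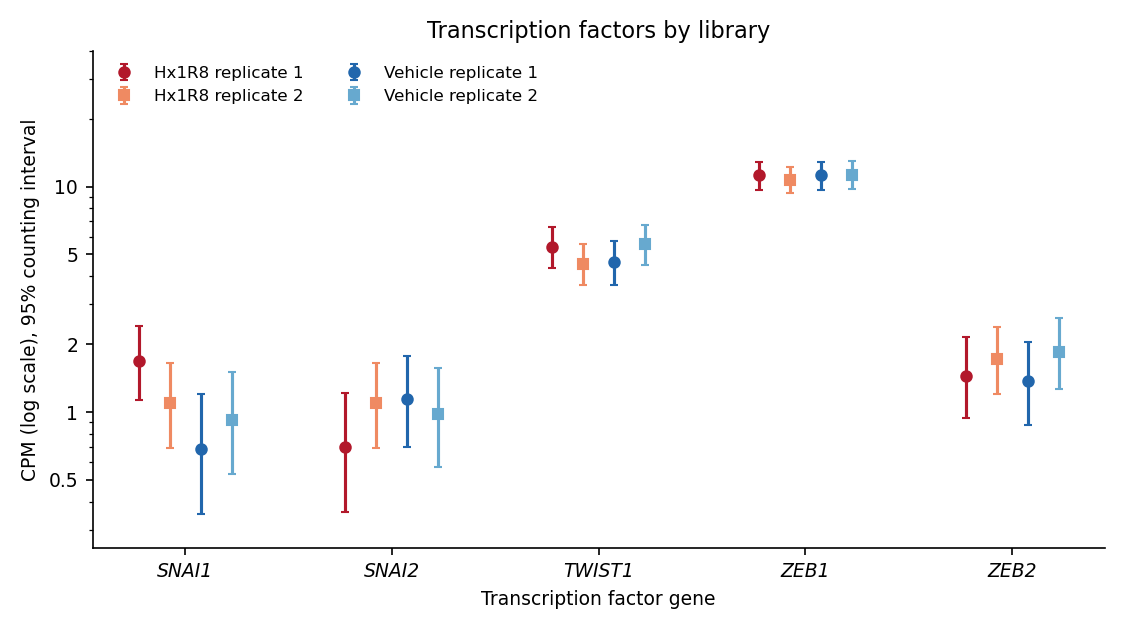
CPM of the 5 transcription factor genes in each library, Hx1R8 left of Vehicle, with exact Poisson intervals (95%) on the counts as bars. SNAI1 is the gene whose Hx1R8 points both lie above its Vehicle points, and the bars are widest for SNAI1, SNAI2 and ZEB2, the genes with the fewest reads.

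ZEB1 (chr10:31318417-31529814, plus strand) and ZEB2 (chr2:144384081-144520119, minus strand) encode zinc finger homeobox repressors of CDH1. ZEB1 had 193 and 225 reads (11.2 and 10.7 CPM) in Hx1R8 libraries and 196 and 195 reads (11.2 and 11.3 CPM) in Vehicle libraries. The groups overlapped, with a log2 fold change of -0.04 (SE 0.11, edgeR adjusted p = 0.9999; fold interval 0.836 to 1.14). ZEB2 had 25 and 36 reads (1.45 and 1.72 CPM) in Hx1R8 libraries and 24 and 32 reads (1.37 and 1.85 CPM) in Vehicle libraries. Its log2 fold change was -0.01 (SE 0.28, edgeR adjusted p = 0.9999; fold interval 0.674 to 1.46).

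ZEB1 mRNA exceeded ZEB2 mRNA in every library, by a TPM ratio of 10.9 and 8.86 in Hx1R8 libraries and 11.6 and 8.64 in Vehicle libraries. ZEB1 shares exon bases with ZEB1-AS1 and ZEB2 with ZEB2-AS1, leaving 93.2% of ZEB1 and 98.7% of ZEB2 their own. ZEB1-AS1 had 30 and 23 reads in Hx1R8 libraries and 32 and 27 in Vehicle libraries, and ZEB2-AS1 had 0 reads. Of a list of 9 microRNA-200 host and antisense genes of the wider gene families, 5 matched a gene in the table and 3 were tested, 1 above and 2 below 0, with a median log2 fold change of -0.18.

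TWIST1 (chr7:19113048-19117636, minus strand) encodes a basic helix-loop-helix factor of mesoderm and neural crest. TWIST1 had 93 and 95 reads (5.40 and 4.53 CPM) in Hx1R8 libraries and 81 and 96 reads (4.63 and 5.55 CPM) in Vehicle libraries. The groups overlapped, and the log2 fold change was -0.04 (SE 0.16, edgeR adjusted p = 0.9999; fold interval 0.771 to 1.22). Of the 5 factors it had the highest level per length. Its relative TWIST2, named after its values were seen, had 16.8 and 17.8 TPM in Hx1R8 libraries and 20.02 and 15.7 TPM in Vehicle libraries, above TWIST1 in each library.

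Over the 10 members, 2 log2 fold changes were above 0 (SNAI1 and VIM) and 8 below, with a median of -0.03 against -0.0018 over all tested genes. In 8 members the groups overlapped, while 1 lay wholly above and 1 wholly below Vehicle, as did 14.7% and 15.2% of all tested genes. The fold interval lay within 1.5-fold of no change in 8 of 10 members, all but SNAI1 and SNAI2, against 81.4% of all tested genes. The width followed the level: among genes of under 2 CPM, where SNAI1, SNAI2 and ZEB2 lie, 2.78% had such an interval, and of those above 20 CPM, where CDH2, EPCAM, VIM and FN1 lie, 100% did.

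**Figure D4:**
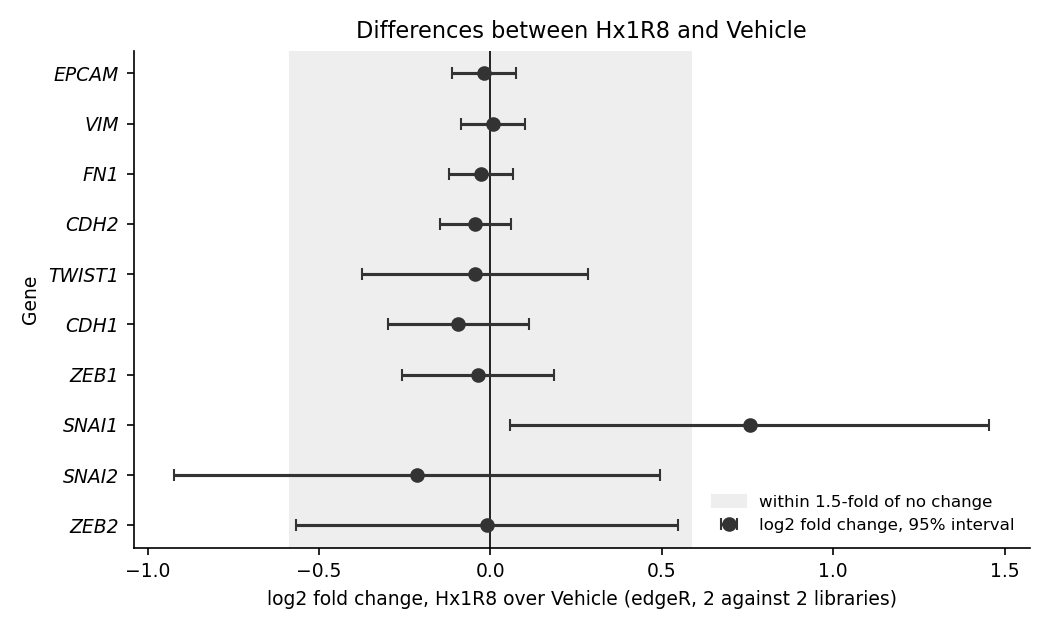
Log2 fold change, Hx1R8 over Vehicle, of each member with its 95% interval from the edgeR fit, and a shaded band for values within 1.5-fold of no change. SNAI1 and SNAI2 have the only intervals that reach past 1.5-fold, and the intervals of the 4 most read members are the narrowest.

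**Figure D5:**
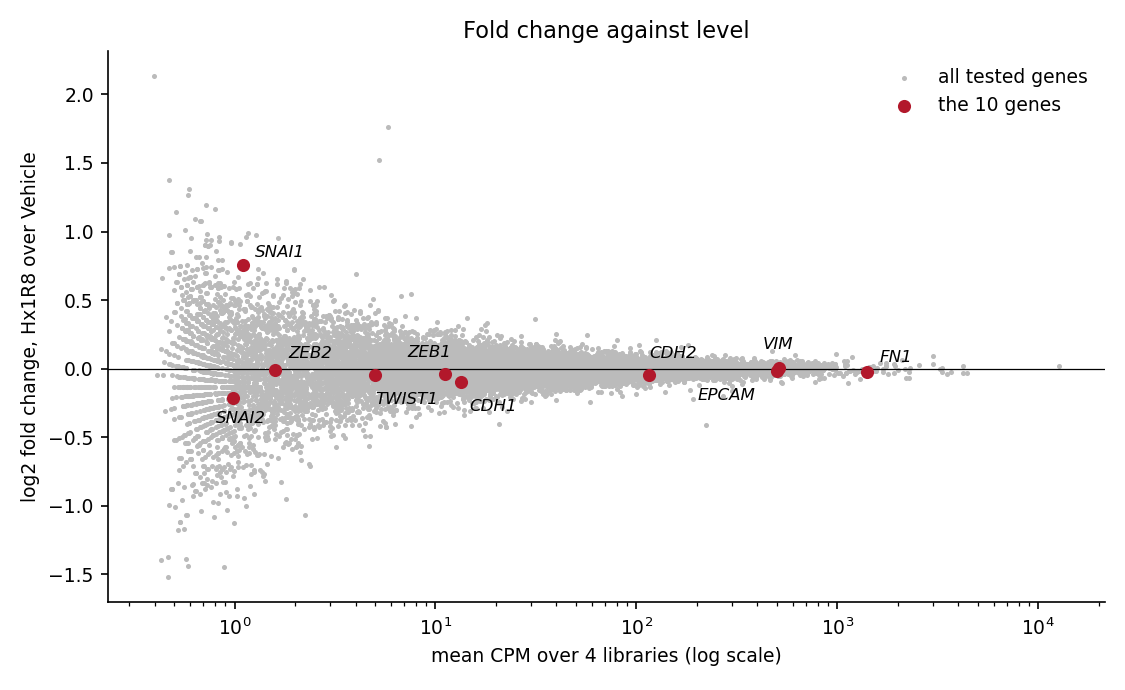
Log2 fold change, Hx1R8 over Vehicle, against mean level in CPM (log axis) for all 14482 tested genes in grey, with the 10 members named. The grey cloud widens toward low levels, and SNAI1, at about 1 CPM, lies inside it.

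Over all tested genes, 7087 log2 fold changes were above 0 and 7395 below. Lists of genes around the members were read from the same fit. Of their genes, 0 were called by edgeR, DESeq2 or limma-voom, against 0.0207% of all tested genes called by edgeR. In the edgeR test, 2 genes of the lists had an unadjusted p under 0.05, as did 3.39% of all tested genes. They were COL6A1, from a list with 30 genes tested, and KRT6A, from a list with 10 tested. Among 17 other transcription factors of the transition, 15 were tested, 5 above and 10 below 0, with a median log2 fold change of -0.01. TCF3, an E-protein partner of TWIST1, averaged 388 ± 1.04 TPM in Hx1R8 cells and 390 ± 8.19 TPM in Vehicle cells, and SOX4 averaged 231 ± 4.56 TPM in Hx1R8 cells and 231 ± 7.04 TPM in Vehicle cells. SNAI3, a further Snail gene, averaged 1.03 TPM in Hx1R8 cells and 1.58 TPM in Vehicle cells (log2 fold change -0.62, SE 0.40), and FOSL1 1.003 TPM in Hx1R8 cells and 1.54 TPM in Vehicle cells (-0.61, SE 0.40). SNAI3 had 10 and 12 reads in Hx1R8 libraries and 13 and 18 in Vehicle libraries. FOSL1 had 9 and 14 reads in Hx1R8 libraries and 14 and 18 in Vehicle libraries. By CPM, both genes lay wholly below Vehicle, an order met by 15.2% of all tested genes, and neither passed the test. Of the 15 tested genes of this list, 2 lay wholly above and 2 wholly below Vehicle.

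Among 16 transcription and splicing factors of epithelia, 11 were tested, 7 above and 4 below 0 (median 0.05), and 7 of the 16 were under 1 TPM in all libraries. KLF4 averaged 276 ± 4.67 TPM in Hx1R8 cells and 282 ± 6.91 TPM in Vehicle cells, and the splicing regulator ESRP1 157 ± 1.53 TPM in Hx1R8 cells and 153 ± 3.31 TPM in Vehicle cells. OVOL2, known to repress ZEB1, averaged 9.69 ± 0.618 TPM in Hx1R8 cells and 8.36 ± 0.636 TPM in Vehicle cells (log2 fold change 0.21, SE 0.15). GRHL3 averaged 0.672 TPM in Hx1R8 cells and 0.418 TPM in Vehicle cells (0.67, SE 0.44).

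Catenins tie cadherins to the cytoskeleton, and nectins join them at adherens junctions. Of 12 adherens junction genes, 11 were tested, 7 above and 4 below 0 (median 0.02). All 11 had intervals within 1.5-fold of no change, against 81.4% of all tested genes and 100% of those above 20 CPM. CTNNB1, which encodes β-catenin, averaged 552 ± 0.996 TPM in Hx1R8 cells and 538 ± 3.48 TPM in Vehicle cells (log2 fold change 0.03, SE 0.05). CTNNA1, which encodes α-catenin, averaged 371 ± 7.89 TPM in Hx1R8 cells and 366 ± 11.9 TPM in Vehicle cells, and its neural relative CTNNA2 7.01 TPM in Hx1R8 cells and 7.94 TPM in Vehicle cells (-0.19, SE 0.11). Of the 18 cadherins other than CDH1 and CDH2, 6 were tested, 3 above and 3 below 0 (median -0.05). CDH24 averaged 19.8 ± 0.0845 TPM in Hx1R8 cells and 21.1 ± 0.950 TPM in Vehicle cells (-0.10, SE 0.08), and CDH8 1.15 TPM in Hx1R8 cells and 1.41 TPM in Vehicle cells (-0.30, SE 0.19).

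Beside EPCAM, 33 epithelial junction and surface genes gave 30 tested, 9 above and 21 below 0, with a median of -0.05. SPINT2, a protease inhibitor, averaged 377 ± 8.41 TPM in Hx1R8 cells and 395 ± 0.490 TPM in Vehicle cells (-0.07, SE 0.05). CRB3, a polarity gene, averaged 46.4 ± 2.11 TPM in Hx1R8 cells and 50.8 ± 0.979 TPM in Vehicle cells (-0.14, SE 0.08), and CD24 averaged 313 TPM in Hx1R8 cells and 308 TPM in Vehicle cells. CLDN4, a tight junction claudin, had 1.07 and 1.38 TPM in Hx1R8 libraries and 2.79 and 1.26 TPM in Vehicle libraries, so its value of -0.71 (SE 0.38) came with a single high Vehicle library. Of 10 genes for the cleavage and signalling of E-cadherin and EpCAM, 9 were tested, 3 above and 6 below 0 (median -0.01), and ADAM10, an E-cadherin sheddase, averaged 205 ± 2.10 TPM in Hx1R8 cells and 204 ± 10.4 TPM in Vehicle cells.

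Beside VIM and FN1, 40 mesenchymal effector genes gave 30 tested, 14 above and 16 below 0 (median -0.01), and 15 of the 40 were under 1 TPM in all libraries. THBS1, a matrix glycoprotein gene, averaged 1284 ± 24.9 TPM in Hx1R8 cells and 1280 ± 30.0 TPM in Vehicle cells, above FN1. CD44, the hyaluronan receptor gene, averaged 546 ± 7.14 TPM in Hx1R8 cells and 533 ± 0.474 TPM in Vehicle cells. COL6A1, a collagen VI chain gene, had 9.78 and 9.62 TPM in Hx1R8 libraries and 7.59 and 8.27 TPM in Vehicle libraries (log2 fold change 0.28, SE 0.11), the 1 gene of this list with an unadjusted p under 0.05, and it did not pass the test over all genes. The mesenchymal genes were thus uneven, with THBS1 and CD44 abundant and others, COL3A1 among them, without reads.

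Of 17 intermediate filament genes beside VIM, 10 were tested, 3 above and 7 below 0 (median -0.03). KRT8 averaged 809 ± 11.9 TPM in Hx1R8 cells and 825 ± 30.3 TPM in Vehicle cells, and its partner KRT18 728 ± 14.2 TPM in Hx1R8 cells and 717 ± 21.1 TPM in Vehicle cells, so the simple keratins stood at levels like that of VIM. KRT6A, a keratin of stratified epithelium, averaged 23.4 ± 0.511 TPM in Hx1R8 cells and 26.4 ± 0.247 TPM in Vehicle cells (-0.18, SE 0.09), and KRT15, a basal keratin, 5.92 TPM in Hx1R8 cells and 7.54 TPM in Vehicle cells (-0.36, SE 0.18). KRT6A and KRT15 had both Hx1R8 values below both Vehicle values and did not pass the test. Of the 10 tested genes, 3 lay wholly below and 1 wholly above Vehicle, against 15.2% and 14.7% of all tested genes. KRT8 and KRT18 have many processed pseudogenes and KRT6A has near-identical paralogs, so their counts are uncertain where the counting split shared reads.

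Of 10 fibronectin receptor genes, 8 were tested, 3 above and 5 below 0 (median -0.02). ITGB1, the β1 integrin gene, averaged 202 ± 7.43 TPM in Hx1R8 cells and 197 ± 11.6 TPM in Vehicle cells, and ITGA4, an α chain gene, 2.57 TPM in Hx1R8 cells and 2.88 TPM in Vehicle cells. TGF-β signalling, a known inducer of the Snail, ZEB and Twist genes, had 24 genes tested of 24, 13 above and 11 below 0 (median 0.02). TGFB2, a ligand gene, averaged 86.6 ± 1.47 TPM in Hx1R8 cells and 80.7 ± 2.53 TPM in Vehicle cells (0.09, SE 0.05), on 74.2% exon bases of its own. TGFB3, another ligand gene, averaged 1.32 ± 0.146 TPM in Hx1R8 cells and 1.85 ± 0.148 TPM in Vehicle cells (-0.49, SE 0.24). TGFB3 was read from 27 and 38 reads in Hx1R8 libraries and 44 and 39 in Vehicle libraries. TGFB2 had both Hx1R8 values above both Vehicle values and TGFB3 both below, and neither passed the test. Of the 24 genes, 4 lay wholly above and 4 wholly below Vehicle, against 14.7% and 15.2% of all tested genes.

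Of 19 corepressor genes that serve the Snail, ZEB and Twist factors, all were tested, 6 above and 13 below 0 (median -0.01). All 19 had intervals within 1.5-fold of no change, against 81.4% of all tested genes and 100% of those above 20 CPM. KDM1A, a histone demethylase gene, averaged 459 ± 13.9 TPM in Hx1R8 cells and 450 ± 3.14 TPM in Vehicle cells, and SUV39H1, a histone methyltransferase gene, 23.7 ± 0.190 TPM in Hx1R8 cells and 25.9 ± 0.661 TPM in Vehicle cells (-0.14, SE 0.08). Of 17 genes that set the stability of Snail and Twist proteins, all were tested, 9 above and 8 below 0 (median 0.00). PSMD14, a deubiquitinase gene of the proteasome, averaged 328 ± 1.58 TPM in Hx1R8 cells and 322 ± 17.8 TPM in Vehicle cells, and CTDSP1, a phosphatase gene, 106 ± 0.889 TPM in Hx1R8 cells and 111 ± 4.84 TPM in Vehicle cells (-0.07, SE 0.05). Protein levels were not measured. All SDs of TPM in these lists are over n = 2 libraries in each group.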

How the data were processed

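RNA-seq counts were read for 2 Hx1R8 and 2 Vehicle libraries of NCI-H520 cells. The authors deposited raw counts per gene, 1 column per library, with exon coordinates and a summed exon length, per the file headers. The aligner was STAR 2.7.9 and the build hg38, per the submitters' processing notes. The sources used here do not give the counting tool, the annotation or the strand setting, so reads of a gene and of an antisense gene over the same bases cannot be told apart. Of 28279 lines, 2 that hold 1 broken row were left out, which left 28277 genes.

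The main test was edgeR 4.0.16 (R 4.3.3), quasi-likelihood and two-sided. It used TMM factors, filterByExpr, a model of group alone, and Benjamini-Hochberg adjustment over 14482 genes, at a threshold of 0.05. Standard errors and 95% intervals came from the fit. TPM was computed here as counts per exon base, scaled to the same sum in each library. The test was checked on simulated counts. Alternatives were other scaling (median-ratio factors, upper-quartile factors, or totals only), other filters (none, or 1 CPM in 2 libraries), other tools (DESeq2 1.42.0, voom of limma 3.58.1, robust dispersions), a block for the replicate number, and each library left out in turn.

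The members, the gene lists and the rule for named genes were chosen with earlier results of these data known. The rule took all 10 members and, of each list, the 2 genes with the smallest unadjusted p and the 2 most abundant by mean TPM, of which the text names some. Chi-square per gene between libraries, over genes with at least 20 reads in the pair, was 1.48 to 2.95, highest between the Vehicle libraries, so no library was taken for a copy of another.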

Additional observations from a re-analysis of the deposited data

How the results depend on the processing

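No member passed the threshold under any of the 13 alternatives. The smallest adjusted p was 0.344 (edgeR, FN1, without Vehicle replicate 1). The members with an interval within 1.5-fold of no change numbered 7 or 8. With all 4 libraries the 9 alternatives turned no member's direction, and SNAI1 ranged over 0.72 to 0.78 on the log2 scale. With 1 library left out, the log2 fold change ran from -0.60 to 0.047 for SNAI2, from -0.21 to 0.22 for ZEB2, from -0.17 to 0.093 for TWIST1, from -0.064 to 0.028 for EPCAM, from -0.039 to 0.058 for VIM and from -0.064 to 0.013 for FN1, so these 6 have no settled direction. The log2 ratio differences ran from -0.087 to 0.033 for EPCAM to VIM and from -0.19 to 0.23 for ZEB2 to ZEB1. SNAI1 stayed between 0.45 and 1.06, CDH1 between -0.14 and -0.04.

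Over all genes, 2 were called higher and 1 lower. DESeq2 and robust dispersions each called 1 higher. With 1 library left out, 2 to 41 genes were called higher and 1 to 38 lower: 41 higher and 38 lower without Vehicle replicate 1, 13 and 18 without Vehicle replicate 2, 5 higher without Hx1R8 replicate 2, and 5 lower without Hx1R8 replicate 1. The cause was not tested. A lone library left in a group was assumed to vary like the other group. With the replicate block, 2 genes were called higher and 1 lower, and SNAI1 stood at 0.77. No label ties same-numbered libraries to each other. The correlation of their deviations was 0.03, which cannot tell whether they were handled together, since counting noise enters each deviation. Depth limits SNAI1, SNAI2 and ZEB2, read from 12 to 36 reads per library.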
